A study of Mus musculus with 10 samples.

Results

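The 38 genes here encode the contractile lattice of the skeletal myofiber, its slow and fast isoforms, a kinase (*Mylk2*) and a calcium buffer (*Pvalb*). They were taken by gene symbol from the platform annotation, each symbol had 1 probe set, and together they made up 38 of the 22206 probe sets on the array. Of these, 8 were slow fiber genes (*Myh7*, *Myl2*, *Myl3*, *Tnnt1*, *Tnni1*, *Tnnc1*, *Tpm3* and *Myoz2*), 9 were fast fiber genes (*Myh4*, *Myh1*, *Mylpf*, *Tnnt3*, *Tnni2*, *Tnnc2*, *Actn3*, *Pvalb* and *Myoz1*), and the other 21 were shared by fiber types or placed in neither class.

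A sarcomere shortens when myosin heads on the thick filament pull on actin in the thin filament. Calcium permits this by binding troponin C, which moves troponin I, troponin T and tropomyosin along the actin strand. Thin filaments are anchored at the Z-disc, thick filaments are crosslinked at the M-line, and titin spans the space between them. Slow and fast fibers build the same lattice from separate genes for myosin heavy and light chains, troponins and Z-disc proteins, and the mouse gastrocnemius (GTN) is a mostly fast muscle with a small slow portion.

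Muscle-specific *Txnrd2* knockout mice (mTKO) lack the mitochondrial thioredoxin reductase in myofibers. They carried *Txnrd2* fl/fl alleles and a Cre recombinase driven by the human *ACTA1* promoter, so the deletion is directed to the myofibers of all types and spares their satellite cells. The ctrl mice carried the same *Txnrd2* fl/fl alleles without Cre, so that Cre itself was present only in mTKO animals. All were C57BL/6N males aged 60 days, and GTN muscle of 5 mTKO and 5 ctrl mice was measured with 1 mouse per array and none pooled. In whole muscle, fewer fibers of a type and less RNA per fiber cannot be told apart.

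*Txnrd2* itself had a log2 signal between 7.51 and 7.96 in mTKO arrays and between 8.47 and 9.08 in ctrl arrays. Skeletal muscle fiber markers averaged 16.2 to 16.4 in mTKO arrays and 16.39 to 16.52 in ctrl arrays (6 of 6 markers measured). Heart muscle markers averaged 4.78 to 5.01 in mTKO arrays and 4.66 to 4.99 in ctrl arrays (4 of 4 measured), below the array medians of 6.06 to 6.14. All 38 genes had a mean above the median probe set. Of all 10 arrays, mTKO replicate 2 had the lowest signal in 15 of the 38 genes, and in 7 of the 8 slow ones, so results on slow genes are given with and without it. Its median correlation with the other mTKO arrays over all probe sets was 0.987, and that of the other 9 arrays with their own genotype was 0.987 to 0.989.

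None of the 38 genes passed the adjusted threshold in the comparison of mTKO with ctrl muscle. Adjusted p-values from limma ran from 0.783 to 0.998, and 0 of 38 genes were called, against 1 of 22206 probe sets (0.0045%). At an unadjusted p under 0.05, limma gave 1 of 38 genes, the Z-disc gene *Tcap*, against 6.36% of all probe sets. The arrays of the genotypes did not overlap in 1 of 38 genes, *Tpm1*, against 1.02% of all probe sets. The largest log2 differences (mTKO minus ctrl) were 0.41 for *Tnnc1* and -0.40 for *Mylk2*. Of the 38 differences, 11 were positive and 27 negative with a median of -0.04, while 11053 of all probe sets were positive and 11071 negative with a median of 0.

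**Figure D1:**
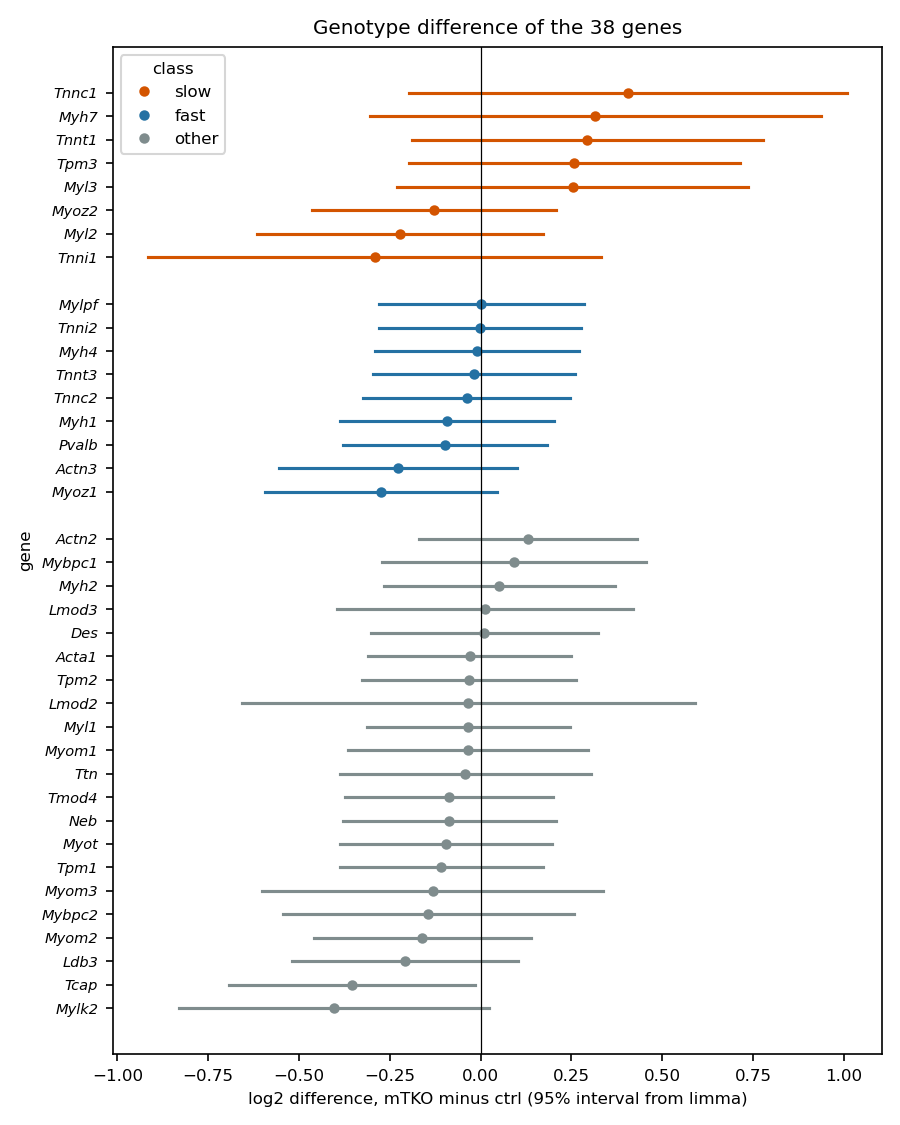
Log2 difference between mTKO and ctrl muscle (x axis) for each of the 38 genes (y axis), grouped as slow, fast and other, with the 95% interval from limma over 5 mTKO and 5 ctrl arrays. The interval of *Tcap* alone lies wholly below 0, and the widest are those of *Tnni1*, *Lmod2*, *Myh7* and *Tnnc1*.

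The spread of the signal between mice was described for each class. The SD within genotype had a median of 0.41 over the 8 slow genes (0.20 to 0.58) and of 0.07 over the 9 fast genes (0.04 to 0.19), against a median of 0.30 over all probe sets. Fast genes also stood higher on the array's signal scale, a position that does not compare RNA amounts between genes. Of them, 5 of 9 lay within 1 log2 unit of the mean array maximum, and 0 of 8 slow genes did. Only 30 probe sets in all lay there, 10 of them from these 38 genes. *Myl1*, the fast essential light chain, read the array maximum on 10 of 10 arrays, at 19.71 to 19.89 in mTKO arrays and 19.83 to 19.91 in ctrl arrays. It shared that value with *Acta1*, the skeletal alpha-actin of the thin filament, on 6 of 10 arrays and with the perinatal myosin gene *Myh8* on 7 of 10 arrays, and 4 to 7 probe sets read the maximum on each array, so these have no order. Whether signals this close to the maximum still follow the amount of RNA was not tested, so nothing about the mice is read from the small SD of the fast genes.

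**Figure D2:**
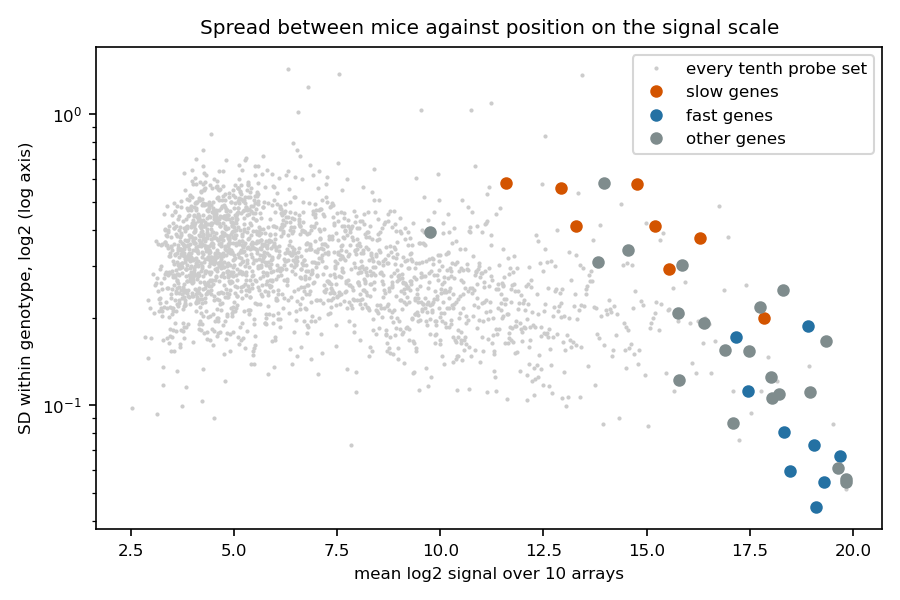
SD of the log2 signal within genotype (y axis, log scale) against the mean log2 signal over the 10 arrays (x axis), for the slow, fast and other genes and for an evenly spaced subset of all probe sets as grey points. Fast genes lie at the lower right, between 0.04 and 0.19, and slow genes lie above them, between 0.20 and 0.58.

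The adult myosin heavy chains are the motors that set the speed of a fiber. *Myh7*, the slow type I chain, had a log2 signal of 14.89, 13.67, 15.32, 15.77 and 15.03 in mTKO replicates 1 to 5, against 14.33, 14.71, 14.67, 14.47 and 14.92 in ctrl replicates 1 to 5. The mTKO arrays reached both above and below the ctrl range, and replicate 2 stood lowest of all 10. The means were 14.94 ± 0.78 in mTKO and 14.62 ± 0.23 in ctrl (SD, n = 5 each), and the difference was 0.32, with 95% limits of -0.30 and 0.94 (limma, adjusted p = 0.897). *Myh2*, the type IIA chain of fast oxidative fibers, had 19.32, 19.31, 19.37, 19.44 and 19.39 in mTKO, against 18.94, 19.28, 19.42, 19.54 and 19.39 in ctrl. Its ctrl arrays spanned the whole mTKO range, with ctrl replicate 1 lowest, and the difference was 0.05 (-0.27 to 0.37).

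*Myh1*, the type IIX chain, had 17.15, 17.48, 17.47, 17.51 and 17.45 in mTKO, against 17.42, 17.55, 17.53, 17.55 and 17.47 in ctrl. Apart from mTKO replicate 1, the arrays of both genotypes lay together, and the difference was -0.09 (-0.39 to 0.20). For *Myh4*, the type IIB chain of the fastest fibers, signals were 19.74, 19.71, 19.69, 19.53 and 19.74 in mTKO, against 19.70, 19.73, 19.65, 19.72 and 19.66 in ctrl. The genotypes overlapped and the difference was -0.01, with a 95% interval from -0.29 to 0.27. Myosin heavy chain genes share long stretches of sequence, and the probe set of the perinatal chain *Myh8*, a gene of immature fibers, read 19.71 to 19.86 in mTKO and 19.79 to 19.87 in ctrl. How far such probe sets read each other's transcripts was not tested.

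Myosin light chains bind the neck of the heavy chain. *Myl3*, the slow essential chain, had 13.77, 12.58, 13.56, 13.90 and 13.30 in mTKO, against 12.85, 13.02, 13.42, 13.10 and 13.45 in ctrl. Arrays of mTKO lay at both ends of the range, and the difference was 0.25 (-0.23 to 0.74). Its fast counterpart *Myl1* had 19.82, 19.89, 19.88, 19.71 and 19.82 in mTKO, against 19.87, 19.91, 19.84, 19.83 and 19.84 in ctrl, a difference of -0.03 (-0.31 to 0.25). *Myl2*, the slow regulatory chain, had 15.64, 14.76, 15.65, 15.62 and 15.47 in mTKO, against 15.47, 15.79, 15.56, 15.86 and 15.57 in ctrl. Again mTKO replicate 2 was lowest, and the difference ran the other way from *Myl3*, at -0.22 (-0.62 to 0.17). *Mylpf*, the fast regulatory chain, had 19.19, 19.02, 19.00, 19.09 and 18.95 in mTKO, against 19.04, 19.04, 19.12, 19.04 and 19.00 in ctrl. Its genotype means were equal within 0.01.

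The troponin complex on the thin filament gave the largest slow difference. *Tnnc1*, the calcium-binding troponin C of slow and cardiac muscle, had 13.23, 11.88, 13.37, 13.80 and 13.38 in mTKO, against 12.40, 12.91, 12.89, 12.42 and 13.01 in ctrl. In mTKO, 4 of 5 arrays exceeded the highest ctrl value and replicate 2 was under the lowest. The difference was 0.41, its standard error 0.28 and its 95% limits -0.20 and 1.01 (limma, adjusted p = 0.863; two-sided exact permutation test, p = 0.310). The fast troponin C gene *Tnnc2* had 18.31, 18.25, 18.28, 18.38 and 18.35 in mTKO, against 18.51, 18.38, 18.28, 18.34 and 18.25 in ctrl, a difference of -0.04 (-0.32 to 0.25).

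*Tnnt1*, which ties the slow complex to tropomyosin, showed the pattern of *Tnnc1*. It had 15.54, 14.47, 15.56, 15.78 and 15.40 in mTKO, against 14.76, 15.33, 14.95, 14.86 and 15.38 in ctrl, a difference of 0.29 (-0.19 to 0.78). Its fast counterpart *Tnnt3* had 19.40, 19.32, 19.25, 19.27 and 19.25 in mTKO, against 19.25, 19.33, 19.37, 19.32 and 19.31 in ctrl, a difference of -0.02 (-0.30 to 0.26). *Tnni1*, the inhibitory subunit of slow fibers, did not share the sign of its partners. Signals were 11.59, 10.41, 12.20, 11.92 and 11.09 in mTKO, against 11.54, 12.26, 12.10, 11.43 and 11.34 in ctrl, a difference of -0.29 (-0.92 to 0.33). For the fast inhibitory subunit *Tnni2* they were 19.14, 19.12, 19.10, 19.13 and 19.05 in mTKO, against 19.11, 19.20, 19.08, 19.08 and 19.08 in ctrl. The *Tnni2* difference was 0.00, with a 95% interval from -0.28 to 0.28.

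The slow tropomyosin gene *Tpm3* had 16.64, 15.67, 16.58, 16.78 and 16.49 in mTKO, against 15.84, 16.46, 16.30, 15.86 and 16.41 in ctrl. As for *Tnnc1* and *Tnnt1*, 4 of 5 mTKO arrays exceeded the highest ctrl value, and the difference was 0.26 (-0.20 to 0.71). *Myoz2* encodes calsarcin-1, the slow and cardiac form of a Z-disc protein that binds calcineurin. It had 17.45, 17.90, 17.91, 17.72 and 17.89 in mTKO, against 17.58, 17.97, 18.13, 17.95 and 17.88 in ctrl, a difference of -0.13 (-0.46 to 0.21). It was the slow gene in which mTKO replicate 2 was not the lowest array.

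**Figure D3:**
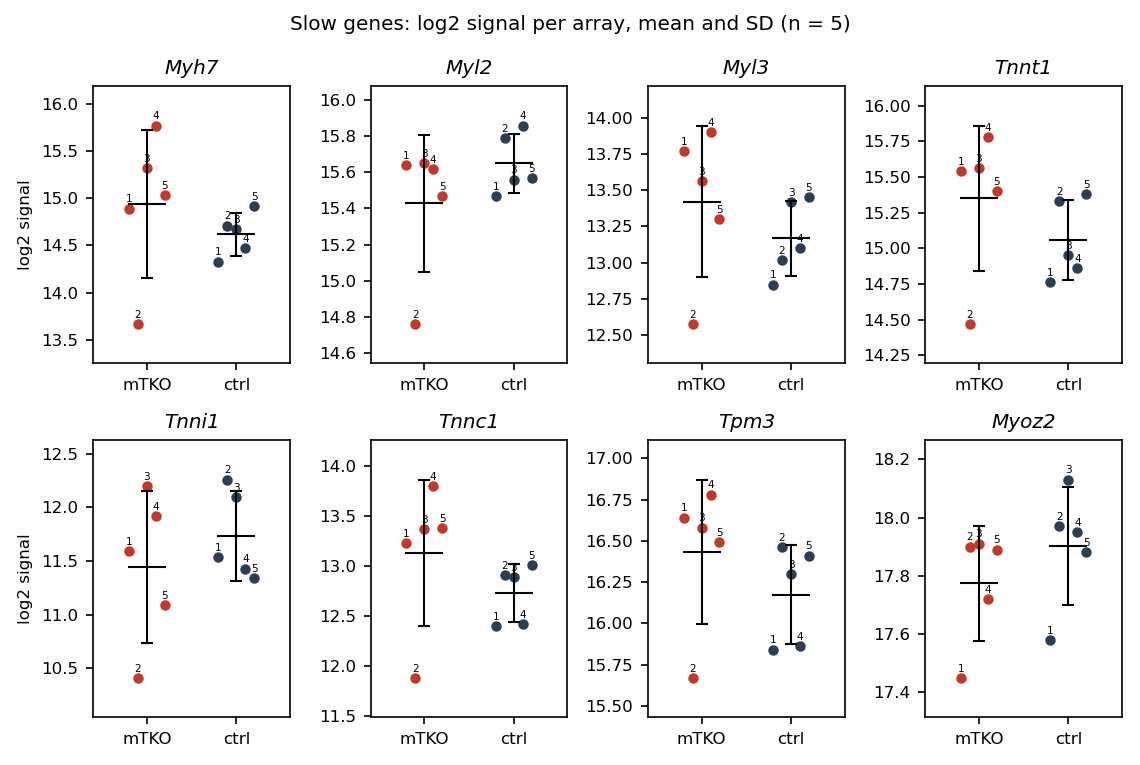
Log2 signal of the 8 slow genes (y axis, own scale per panel) in the 5 mTKO and 5 ctrl arrays, with replicate numbers beside the points and lines for mean and SD. Replicate 2 of mTKO is the lowest point in 7 of 8 panels, and in *Tnnc1*, *Tnnt1* and *Tpm3* the other 4 mTKO points lie above all ctrl points.

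Over the 8 slow genes, 5 differences were positive and 3 negative with a median of 0.26, and over the 9 fast genes, 1 was positive and 8 negative with a median of -0.04. At an unadjusted p under 0.05, limma gave 0 of 8 slow and 0 of 9 fast genes, against 6.36% of all probe sets. Lists this short can hold 0 at that share, so nothing is read from these counts. The mean of the slow genes, relative to the ctrl mean of each gene, was 0.22, -0.71, 0.39, 0.53 and 0.13 in mTKO replicates 1 to 5, against -0.28, 0.18, 0.12, -0.13 and 0.12 in ctrl replicates 1 to 5. The mean of the fast genes was -0.03, -0.13, -0.11, -0.08 and -0.07 in mTKO, against 0.07, 0.04, -0.04, -0.03 and -0.04 in ctrl. The slow mean thus varied widely from mouse to mouse, with mTKO replicate 2 and ctrl replicate 1 lowest in their genotypes. The fast mean stayed between -0.13 and 0.07, and as above nothing about the mice is read from that narrow range. Slow minus fast averaged 0.20 ± 0.47 in mTKO and 0 ± 0.23 in ctrl (SD, n = 5 each), so the difference of 0.20 was smaller than the spread in either genotype.

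**Figure D4:**
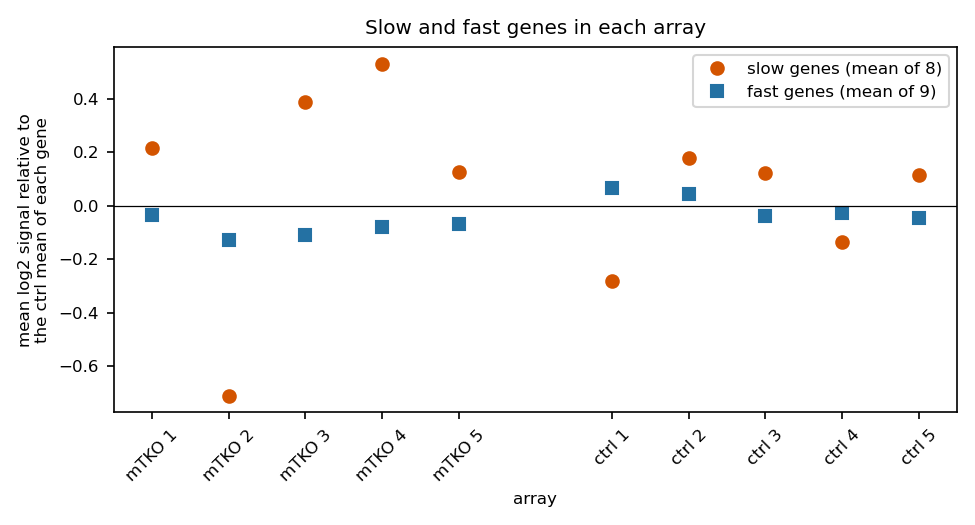
Mean log2 signal of the 8 slow genes (circles) and the 9 fast genes (squares), relative to the ctrl mean of each gene (y axis), in each of the 5 mTKO and 5 ctrl arrays (x axis). The slow mean runs from -0.71 to 0.53 in mTKO and from -0.28 to 0.18 in ctrl, and the fast mean stays between -0.13 and 0.07.

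Without mTKO replicate 2, the median difference of the slow genes was 0.46. Differences were then 0.72 for *Tnnc1*, 0.63 for *Myh7*, 0.51 for *Tnnt1*, 0.46 for *Myl3* and 0.45 for *Tpm3*, while *Myl2*, *Tnni1* and *Myoz2* kept negative differences of -0.06, -0.03 and -0.16. That array was singled out because it was low in these same genes. Higher differences without it follow from the choice, and they are given as a description only. None of the 38 genes passed the adjusted limma threshold without it either (lowest adjusted p = 0.616). The p-values of that fit carry the same choice and are no test of the slow genes. Leaving out mTKO replicate 4 instead, the array with the highest signal in 5 of 8 slow genes, gave a median of 0.12.

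Both of these arrays also lay at an end of several other marker lists, over all arrays or within mTKO. In mTKO replicate 2, nerve and Schwann cell markers averaged 10.37, against 8.93 to 9.50 in the other mTKO arrays and 9.13 to 9.63 in ctrl arrays (3 of 5 listed markers measured, *Mbp*, *Pmp22* and *S100b*). Its adipocyte markers averaged 8.35, against 6.5 to 7.53 in the other mTKO arrays and 6.95 to 8.77 in ctrl arrays (5 of 6 measured). Its macrophage markers averaged 7.21, against 6.33 to 6.75 in the other mTKO arrays and 6.54 to 7.13 in ctrl arrays (4 of 5 measured). Fibroblast and tendon markers (8 of 9 measured) were lowest in this array, at 11.94, and so were skeletal muscle fiber markers, at 16.2. Endothelium markers (11.2) and smooth muscle markers (9.33) were lowest there too. In mTKO replicate 4, fibroblast and tendon markers averaged 13.45, against 11.94 to 12.50 in the other mTKO arrays and 12.39 to 12.81 in ctrl arrays. Lymphocyte markers (4.38, 3 of 4 measured), satellite cell markers (6.62, 3 of 3 measured) and heart muscle markers (5.01) were also highest in replicate 4. The mitochondrial folate enzyme gene *Mthfd2*, the 1 called probe set, read 13.66 in mTKO replicate 2, against 9.68 to 11.79 in the other mTKO arrays and 7.12 to 7.84 in ctrl arrays. The part of these values in the slow gene result was not tested.

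Promoter sequence is shown for both troponin C genes, for *Tnnt1* and for *Myh4*, as slow genes that were low in the same mTKO array and fast genes whose array signals hardly varied. The bases upstream of the annotated start come from RefSeq (GRCm38.p6), 5′ to 3′ on the strand of the gene. Capitals mark matches to the TATA box (TATAAA), an E-box (CAGCTG), the M-CAT element (CATTCC) and the MEF2 site, each searched on both strands. They lie at chr14:31208062-31208311 (plus strand) for *Tnnc1*, chr7:4515976-4516225 (minus strand) for *Tnnt1*, chr2:164779735-164779984 (minus strand) for *Tnnc2* and chr11:67237562-67237811 (plus strand) for *Myh4*.
Tnnc1: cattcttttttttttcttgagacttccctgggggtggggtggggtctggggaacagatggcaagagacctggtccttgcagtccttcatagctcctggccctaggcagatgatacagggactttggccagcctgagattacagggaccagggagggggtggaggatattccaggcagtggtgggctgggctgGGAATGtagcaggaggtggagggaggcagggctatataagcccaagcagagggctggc
Tnnt1: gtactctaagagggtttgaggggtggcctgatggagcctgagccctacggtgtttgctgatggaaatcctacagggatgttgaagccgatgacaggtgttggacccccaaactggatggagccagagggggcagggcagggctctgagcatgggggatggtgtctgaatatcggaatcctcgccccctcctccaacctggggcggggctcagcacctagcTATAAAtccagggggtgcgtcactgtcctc
Tnnc2: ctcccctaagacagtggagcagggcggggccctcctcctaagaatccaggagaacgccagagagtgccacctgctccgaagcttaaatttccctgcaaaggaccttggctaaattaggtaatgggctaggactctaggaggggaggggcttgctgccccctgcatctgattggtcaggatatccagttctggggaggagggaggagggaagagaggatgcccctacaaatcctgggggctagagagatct
Myh4: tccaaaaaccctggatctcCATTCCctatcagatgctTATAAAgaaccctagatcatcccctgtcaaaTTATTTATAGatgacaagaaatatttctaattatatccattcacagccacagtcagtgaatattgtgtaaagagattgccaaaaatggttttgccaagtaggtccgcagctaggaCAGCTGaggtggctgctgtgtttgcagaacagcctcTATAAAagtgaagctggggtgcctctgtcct
*Tnnc1* held an M-CAT element beginning 58 bases before the start, on the opposite strand. *Tnnt1* held a TATA box beginning 30 bases before it, and *Tnnc2* held none of the 4 motifs in this window. *Myh4* held all 4, with TATA box matches beginning 213, 179 and 31 bases before the start. The second of these is on the opposite strand (TTTATA) and overlaps the MEF2 match. Of the 38 genes, 28 had an entry in the promoter table, among them 8 slow and 5 fast genes. A MEF2 match was found in 1 slow gene (*Myoz2*), 3 fast genes (*Myh1*, *Myh4* and *Pvalb*) and 2 others (*Myom3* and *Ttn*), against 2.92% of all 32851 promoters of 250 bases. M-CAT matches were found in 3 slow genes (*Myh7*, *Myl3* and *Tnnc1*), 2 fast and 4 other genes, against 12.6% of all promoters. E-box matches were found in 4 slow, 2 fast and 5 other genes, against 13.0%, and TATA boxes in 2 slow, 2 fast and 2 other genes, against 12.4%. A gene was counted if any of its promoters matched, whereas the percentages are shares of single promoters. The gene counts and percentages are therefore not like for like, and no excess is read from them. A match describes the letters and is not evidence of a working site.

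Besides *Tnni1* and *Myl2*, the negative differences beyond -0.20 were those of *Mylk2*, *Tcap*, *Myoz1*, *Actn3* and *Ldb3*, none of which passed the adjusted threshold. *Tcap* encodes telethonin, which caps titin at the Z-disc, and had 15.33, 15.63, 15.55, 15.55 and 15.88 in mTKO, against 15.88, 16.14, 15.91, 16.15 and 15.63 in ctrl. The genotypes overlapped through replicate 5 of each, the highest mTKO array and the lowest ctrl array. The means were 15.59 ± 0.20 in mTKO and 15.94 ± 0.22 in ctrl (SD, n = 5 each), a difference of -0.35 (-0.69 to -0.02) or 0.782-fold. The unadjusted limma p was 0.0416 and the adjusted p 0.783, and leaving out single arrays gave unadjusted limma p-values from 0.0193 to 0.105. Only without mTKO replicate 5 or ctrl replicate 5 was it under 0.05.

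*Myoz1* encodes calsarcin-2, the fast counterpart of *Myoz2*. It had 17.15, 16.90, 17.07, 16.83 and 17.16 in mTKO, against 17.53, 17.48, 17.15, 17.17 and 17.15 in ctrl. The mTKO arrays lay near or below the lower 3 ctrl arrays, and the difference was -0.27 (-0.59 to 0.05; limma, adjusted p = 0.832; two-sided exact permutation test, p = 0.0476). *Actn3*, the alpha-actinin of fast fibers that crosslinks actin at the Z-disc, had 18.98, 18.58, 18.65, 18.95 and 18.82 in mTKO, against 19.34, 19.02, 18.83, 18.90 and 19.03 in ctrl. All 5 mTKO arrays lay below the ctrl mean, and the difference was -0.23 (-0.56 to 0.10). *Ldb3*, which encodes the actinin-binding ZASP, had a difference of -0.21 (-0.52 to 0.10), also with 5 of 5 mTKO arrays below the ctrl mean. The other alpha-actinin, *Actn2*, which is made in all fiber types, had one of 0.13 (-0.17 to 0.43).

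*Mylk2*, the skeletal myosin light chain kinase, phosphorylates the fast regulatory light chain during contraction. Signals were 14.62, 13.59, 14.31, 14.61 and 14.65 in mTKO, against 14.93, 14.55, 14.61, 14.81 and 14.90 in ctrl. Its difference of -0.40 (-0.83 to 0.02; limma, adjusted p = 0.810) rested in part on mTKO replicate 2, without which it was -0.21. *Pvalb* encodes parvalbumin, the calcium buffer that speeds relaxation of fast fibers, and had 18.52, 18.33, 18.37, 18.46 and 18.49 in mTKO, against 18.57, 18.54, 18.52, 18.51 and 18.52 in ctrl. Only mTKO replicate 1 reached the ctrl range, and the difference was -0.10 (two-sided exact permutation test, p = 0.0317; limma, adjusted p = 0.940).

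*Tpm1*, the tropomyosin of fast muscle and heart, had 19.60, 19.59, 19.59, 19.54 and 19.60 in mTKO, against 19.82, 19.63, 19.70, 19.61 and 19.70 in ctrl. The 5 mTKO values were all under the lowest ctrl value, by a gap of 0.01 between the nearest values, which is the step to which the deposited values were rounded. The difference was -0.11 (-0.39 to 0.17; limma, adjusted p = 0.930; exact permutation p = 0.00794, two-sided, which is the minimum for 5 arrays against 5). *Tpm2* had a difference of -0.03 (-0.33 to 0.26).

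**Figure D5:**
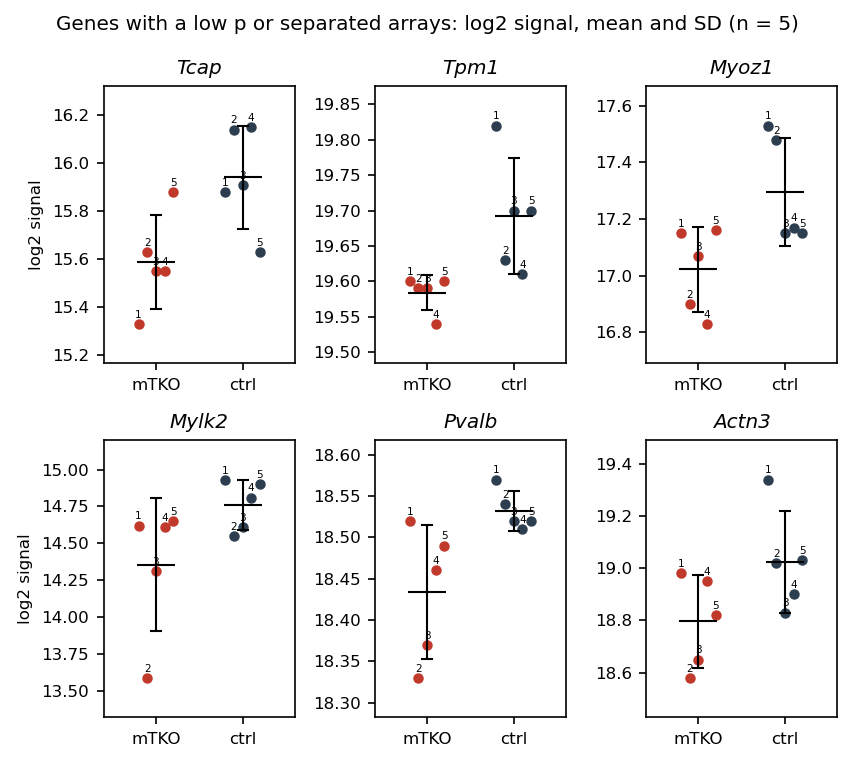
Log2 signal of *Tcap*, *Tpm1*, *Myoz1*, *Mylk2*, *Pvalb* and *Actn3* (y axis, own scale per panel) in the 5 mTKO and 5 ctrl arrays, with replicate numbers, means and SD. The *Tpm1* groups are apart by 0.01, the others overlap, and in every panel all 5 mTKO points lie below the ctrl mean.

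The spread that limma assigned to these bright probe sets depended on its settings, because its default draws all probe sets towards 1 common variance. With a variance that follows the signal level (trend and robust), the unadjusted p was under 0.05 in 5 of 38 genes, against 6.54% of all probe sets. From this limma fit they were *Tcap* (unadjusted p = 0.00664), *Myoz1* (unadjusted p = 0.0148), *Mylk2* (unadjusted p = 0.0208), *Actn3* (unadjusted p = 0.0331) and *Ldb3* (unadjusted p = 0.0452), each with a negative difference. None passed after adjustment, with a lowest adjusted limma p of 0.586. The intervals of the slow genes all still included 0 in that fit.

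For the remaining structural genes, differences lay between -0.16 and 0.09. The giant proteins titin (*Ttn*) and nebulin (*Neb*), which set filament lengths, had differences of -0.04 (-0.39 to 0.30) and -0.09 (-0.38 to 0.21). The myomesins of the M-line had differences of -0.03 for *Myom1*, -0.16 for *Myom2*, which belongs to fast fibers, and -0.13 for *Myom3*. Desmin (*Des*), the intermediate filament around Z-discs, had one of 0.01, and myotilin (*Myot*), a Z-disc protein that binds actin, one of -0.10. Slow and fast myosin binding protein C, *Mybpc1* and *Mybpc2*, had differences of 0.09 (-0.27 to 0.46) and -0.14 (-0.54 to 0.26). At the free ends of the thin filaments, the leiomodin genes *Lmod2* and *Lmod3* gave -0.03 and 0.01, and tropomodulin *Tmod4* gave -0.09. *Lmod2* had a range over the 10 arrays from 13.10 to 14.82, both of these in mTKO, so that mice differed far more than genotypes. *Acta1* had a difference of -0.03 (-0.31 to 0.25).

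Genes of fiber type outside the sarcomere were described by counts. Of 8 slow fiber genes outside the sarcomere, 5 differences were positive and 3 negative with a median of 0.12, and limma gave 1 unadjusted p under 0.05, against 6.36% of all probe sets. This was *Casq2*, the calsequestrin that stores calcium in slow and cardiac muscle, with 11.68, 12.06, 12.33, 12.00 and 11.90 in mTKO, against 11.11, 11.52, 11.34, 11.72 and 11.45 in ctrl. Only ctrl replicate 4 reached the mTKO range, and the difference was 0.57 (0.21 to 0.92; limma, unadjusted p = 0.00376 and adjusted p = 0.677). Unlike 7 of 8 slow sarcomere genes, *Casq2* was not low in mTKO replicate 2. *Atp2a2*, the slow calcium pump, had 15.84, 15.21, 16.12, 16.33 and 15.85 in mTKO, against 15.15, 15.64, 15.72, 15.16 and 15.84 in ctrl, with replicate 2 the lowest mTKO array and a difference of 0.37 (-0.09 to 0.82). The 11 fast fiber genes outside the sarcomere, the calcium pump *Atp2a1* and glycolytic enzymes among them, all had negative differences, between -0.13 and -0.002 with a median of -0.02, and 0 had an unadjusted limma p under 0.05. Those of *Atp2a1*, *Ckm*, *Pygm*, *Eno3* and *Aldoa* lay between -0.008 and -0.002, within the rounding step of 0.01, so no common shift is read from the signs.

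Of 9 developmental and cardiac isoforms, 6 differences were positive and 3 negative with a median of 0.17, and 4 had an unadjusted limma p under 0.05, against 6.36% of all probe sets. The signs include those of *Myh6*, *Tnni3*, *Myl7* and *Mybpc3*, which read below the array median on every array, and of *Myh8*, which read near the maximum. *Tnnt2*, the cardiac troponin T that immature skeletal fibers also express, had 7.56, 7.68, 7.06, 6.80 and 7.68 in mTKO, against 6.13, 7.18, 6.81, 6.46 and 6.25 in ctrl. The difference was 0.79 (0.30 to 1.28; limma, unadjusted p = 0.00339 and adjusted p = 0.661), and ctrl replicates 2 and 3 lay within the mTKO range. *Actc1*, the cardiac alpha-actin, had 13.65, 14.94, 15.48, 16.21 and 14.24 in mTKO, against 13.14, 14.71, 13.74, 12.56 and 12.94 in ctrl, and the genotypes overlapped through ctrl replicates 2 and 3. The difference was 1.49 (0.55 to 2.42; limma, unadjusted p = 0.00397 and adjusted p = 0.677). The embryonic myosin *Myh3* had a difference of 0.59 (0.03 to 1.15) and the fetal light chain *Myl4* one of -0.44 (-0.83 to -0.06), so the isoforms of immature muscle did not share a direction. Leaving out single arrays gave unadjusted limma p-values from 0.00834 to 0.118 for *Myh3* and from 0.00877 to 0.0802 for *Myl4*, and kept those of *Tnnt2* and *Actc1* under 0.05 in every case. Satellite cell markers had 3 positive differences of 3, with 1 unadjusted limma p under 0.05, that of *Pax7* (0.47; limma, unadjusted p = 0.016). Smooth muscle markers had 4 negative differences of 4, with 2 under 0.05. These were *Tagln* (-0.48; limma, unadjusted p = 0.0306) and *Myh11* (-0.38; limma, unadjusted p = 0.0416). Of 5 adipocyte and 4 macrophage markers measured, 1 each was under 0.05, and lower in mTKO. None of these markers passed after adjustment, with a lowest adjusted limma p of 0.759 for satellite cell and 0.783 for smooth muscle markers. The part of these cell types in the isoform values was not tested.

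Of 37 further sarcomere and Z-disc genes measured out of 39 listed, 16 differences were positive and 20 negative with a median of -0.07, and 2 had an unadjusted limma p under 0.05, a share below the 6.36% of all probe sets. *Myoz3*, the third calsarcin, had 11.06, 10.75, 11.30, 11.75 and 11.50 in mTKO, against 12.09, 11.45, 11.72, 11.83 and 11.77 in ctrl. In mTKO, 3 of 5 arrays lay below the ctrl range, and the difference was -0.50 (-0.91 to -0.09; limma, unadjusted p = 0.0204 and adjusted p = 0.765). Without mTKO replicate 2 or ctrl replicate 1 its unadjusted limma p was no longer under 0.05. *Ankrd1*, a stretch-responsive repeat protein that binds titin, had a difference of 0.55 (0.02 to 1.09), with unadjusted limma p-values from 0.0208 to 0.146 without single arrays. Of 23 measured regulators of fiber type out of 28 listed, 9 differences were positive and 14 negative with a median of -0.03. An unadjusted limma p under 0.05 was found in 1 of the 23, a share below the 6.36% of all probe sets. This was *Esrrg*, a nuclear receptor of oxidative fibers, with 10.23, 10.25, 10.67, 10.19 and 10.12 in mTKO, against 9.38, 9.39, 10.12, 9.38 and 10.07 in ctrl. The mTKO arrays lay at or above the highest ctrl array, and the difference was 0.62 (0.21 to 1.03; limma, unadjusted p = 0.00533 and adjusted p = 0.677).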

How the data were processed

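Clariom S mouse arrays (Affymetrix) were run on RNA of GTN muscle, 1 for each of 5 mTKO and 5 ctrl mice. Signals were summarized by the authors with SST-RMA (Affymetrix Expression Console 1.4) and deposited as log2 values, background-corrected, normalized between arrays and rounded to 2 decimals. They entered the tests unchanged. Of 22206 probe sets, 19572 had 1 symbol in the platform annotation, 0 had several and 2634 were unnamed here. The number of arrays limits the precision.

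Genotypes were compared over all probe sets by limma 3.58.1 under R 4.3.3 (default lmFit and eBayes, with 7.53 as prior degrees of freedom, an adjusted threshold of 0.05 after Benjamini-Hochberg correction and 95% intervals), and single genes also by a two-sided exact permutation test over 5 and 5 arrays. Per-array means of gene lists were described without a test. Promoters came from a RefSeq table (GRCm38.p6, 250 bases upstream). Plots were made in matplotlib 3.10.9 (Python 3.11). The limma step was tested on simulated data.

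The genes and lists were chosen with earlier results of these data known. All 38 genes were named, with values in every array for the adult myosin heavy chains, the slow and fast counterparts and genes with an unadjusted p under 0.05 or separated genotypes. Of other lists, at most 6 genes of that kind were named, and *Atp2a2*, *Atp2a1*, *Actn3*, *Mylk2*, *Pvalb*, *Tpm3* and *Mthfd2* were given in this detail after their values were seen. Replicates are separate mice. Alternatives were trend and robust eBayes, the methods' t-test, median centring, quantile normalization, a filter on dim probe sets, array weights and a replicate block. Further ones were averaging the probe sets of a symbol, other summaries of slow minus fast and leaving out each array. Averaging could not change the 38 genes, since each had 1 probe set.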

Additional observations from a re-analysis of the deposited data

Results flagged for a closer look

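Of 82 groups of 5 arrays examined for a single distant array, 6 had one, where chance gives about 1 in 20. In mTKO replicate 2, *Myl2* read 14.76 (next array of the genotype 15.47) and *Tpm3* read 15.67 (next 16.49). In mTKO replicate 4, *Myh4* read 19.53 (next 19.69) and *Tpm1* read 19.54 (next 19.59). *Myh1* read 17.15 in mTKO replicate 1 (next 17.45), and *Tnni2* read 19.20 in ctrl replicate 2 (next 19.11).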

How the results depend on the processing

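The count of 1 called probe set became 9 with trend and robust eBayes, 3 among probe sets above the median, 0 after quantile normalization, 13 by the methods' t-test with their fold change and 0 by that t-test with Benjamini-Hochberg adjustment, and 0 to 1 without single arrays. The 1 gene of the 38 with an unadjusted p under 0.05 became 5 with trend and robust eBayes (6.54% of all probe sets). The count was 4 by the methods' t-test (6.05% of all probe sets), 0 with its fold change added and 0 to 5 without single arrays. Only leaving out mTKO replicate 2 gave 5, all slow genes (6% of all probe sets). That array was singled out for its low slow genes, so this count carries the choice and is no test of them. Leaving out any other array gave 0 to 2. Slow minus fast, 0.20 in log2 units, was 0.09 to 0.39 without single arrays. With each gene divided by its SD it was 0.77 in SD units, which cannot be compared in size with the log2 values. Without single arrays the median was 0.12 to 0.46 for slow genes and -0.06 to -0.02 for fast genes. Directions turned for genes near 0. After quantile normalization *Myh4* was 0.0274, *Mylpf* -0.0106, *Tnnt3* 0.0206 and *Acta1* 0.0046, and after median centring *Tnni2* was 0.004. Without single arrays the range crossed 0 for *Myh4* (-0.0245 to 0.028), *Mylpf* (-0.033 to 0.027), *Tnni2* (-0.01 to 0.0205), *Tnnc2* (-0.0635 to 0.0015), *Myh2* (-0.0415 to 0.11), *Tpm2* (-0.063 to 0.007), *Ttn* (-0.11 to 0.0505), *Des* (-0.0545 to 0.0605), *Mybpc1* (-0.024 to 0.17), *Myom1* (-0.11 to 0.013), *Lmod2* (-0.25 to 0.18) and *Lmod3* (-0.11 to 0.12). Between mTKO and ctrl mice of the same replicate number, correlations of deviations were -0.04 to 0.16. Such values cannot settle whether the mice were paired, and the sample labels do not say. With the replicate block, the counts stayed 1 and 1, the slow and fast medians 0.26 and -0.04, and slow minus fast 0.20, while *Tcap* had an unadjusted limma p of 0.0644 and *Mylk2* one of 0.0343. The causes of these shifts were not tested.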
